A study of Mus musculus with 24 samples.

Results

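The conjugation enzymes of phase II drug metabolism described here are the glutathione S-transferases (GST), the UDP-glucuronosyltransferases (UGT) and the cytosolic sulfotransferases (SULT) of mouse liver. Members were chosen by gene symbol: the symbols had to read as a lettered GST class, a UGT of families 1 to 3 or a numbered SULT. The rule itself uses no measured value, but it was drawn up with earlier results of these data known. The array carried 53 such genes among 37074 gene names, 20 GST, 14 UGT and 19 SULT genes. Of these, 42 gave a signal well above background in at least 4 of the 6 mice of some group and were tested (18 GST, 14 UGT and 10 SULT genes), out of 21331 genes tested in all. The study measured liver gene expression in 24 male C57Bl/6J mice, 6 in each of 4 groups, with 1 single-colour Agilent array per mouse. The genotypes are labelled LWT and LKO, which are read here, from the title of the series and not from the sample labels, as mice with and without PPARα, the fatty acid-sensing nuclear receptor, in hepatocytes; how the gene was deleted is not given in the sources used here. Mice of each genotype received either CL316243, which activates beta3-adrenergic receptors and is called Beta3 in the labels, in a dose of 3 mg/kg, or its vehicle alone, 0.5% carboxymethyl cellulose in water. The gavage was given at Zeitgeber time (ZT, hours after lights on) 10 and livers were taken at ZT 16, with standard diet freely available throughout.

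Phase II enzymes join a polar group to drugs, hormones, bile acids, bilirubin and reactive lipids, which makes them easier to excrete in bile or urine. GST enzymes attach glutathione, UGT enzymes attach glucuronic acid from UDP-glucuronic acid, and SULT enzymes attach sulfate from the donor PAPS. The liver is a main site of all of these reactions, and the nuclear receptors CAR, PXR and PPARα, the aryl hydrocarbon receptor and the antioxidant factor NRF2 are known regulators of many of the genes. Beta3-adrenergic receptors are best known from adipocytes, where they drive lipolysis.

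Levels are log2 intensities relative to the 75th percentile of the gene probes of each array, so that a difference of 1 is a doubling, and levels are compared between mice and never between genes. Ppara itself was lower in the LKO livers, by 0.67 on this scale under vehicle and by 1.91 under CL316243, with no overlap between genotypes in either treatment (exact permutation test over mice, two-sided, p = 0.00216 each, the smallest value that 924 splits allow). In the fit over all genes the difference under vehicle did not pass (adjusted p = 0.161). Whether the Ppara probes lie in the deleted part of the gene is not given in the sources used here. The 75th percentile lay between 271.1 and 390.1 intensity units, between 26985 and 34202 probes per array were well above background, and no member probe was saturated. The 6 hepatocyte markers were well above background in all mice, and their summed level (linear, in multiples of the 75th percentile) ranged from 2650 to 3660 over the 4 groups. The summed level of 6 neutrophil and lymphocyte markers ranged from 13.7 to 18 in the vehicle groups, from 14.7 to 28.7 in LWT mice given CL316243 and from 15 to 72.5 in LKO mice given CL316243. The sum of 5 cholangiocyte markers ranged from 5.19 to 9.82 in the vehicle groups, from 6.24 to 20.7 in treated LWT mice and from 10.5 to 20.6 in treated LKO mice. The part of these cells in the results on CL316243 was not tested.

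Read by the brightest kept probe of each gene, CL316243 lowered conjugation genes in LWT livers and raised none. A second probe of Gstt2 did rise, by 1.19 ± 0.19 (adjusted p = 3.13e-05). Of the 42 tested members, 15 fell and 0 rose, with 8 UGT, 5 SULT and 2 GST genes among those that fell (limma's moderated test, Benjamini-Hochberg adjusted p under 0.05 over all genes tested). At an unadjusted p under 0.05, 18 were lower and 0 higher, with no count over all genes at that threshold to set beside them. Over all genes 38.2% were called in this comparison, 19.1% as higher and 19.1% as lower, so that the share of members called, 35.7%, was close to the background while the direction was one-sided. The median log2 change of the tested members was -0.14, against 0.012 for all genes tested. The groups of 6 did not overlap in 4 of the 42 members, which is fewer than the 20.3% of all genes. In whole liver a smaller number of hepatocytes and less RNA per hepatocyte cannot be told apart.

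The UGT genes fell in LWT mice in the UGT2 branch, whose enzymes glucuronidate steroids, bile acids and drugs. Both Ugt2a genes and 5 of the 7 Ugt2b genes fell, by a median of -0.32 for Ugt2b, and the other Ugt2b genes, Ugt2b36 and Ugt2b38, had changes of -0.17 and -0.19 that did not pass (adjusted p = 0.0955 and 0.0803). Ugt2b34 had levels of 6.69 (lowest), 6.80 (median) and 6.99 (highest) in the 6 LWT mice on vehicle and 5.74, 6.15 and 6.50 in those on CL316243. Every treated LWT mouse lay below every vehicle mouse, a change of -0.67 ± 0.11 (SE; adjusted p = 3.6e-05). Ugt2b1 ranged from 4.59 to 4.97 around a median of 4.79 on vehicle and from 4.20 to 4.85 around 4.46 on CL316243. These groups overlapped, and the change of -0.32 ± 0.11 passed (adjusted p = 0.0289) but was lost when any of 6 mice was left out, with adjusted p then between 0.0516 and 0.0742. The Ugt3a genes, whose products use other UDP sugars, changed by -0.04 and 0.03, neither of which passed.

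Ugt1a6a, named for an enzyme that glucuronidates planar phenols, had the largest fall among the members. Its levels in LWT mice were -0.98, -0.87 and -0.76 (lowest, median, highest) on vehicle and -3.54, -2.68 and -1.65 on CL316243. The groups did not overlap, and the treated mice were spread far more widely, with an SD of 0.69 against 0.10. The change was -1.73 ± 0.27 (adjusted p = 2.55e-05), to 0.301 of the vehicle level. With normexp background correction the size was smaller, -1.03 in LWT (adjusted p = 7.19e-07) and -0.83 in LKO livers (adjusted p = 1.35e-05). In LKO mice the levels were -1.10, -0.97 and -0.80 on vehicle and -3.46, -2.39 and -1.69 on CL316243, again without overlap, a change of -1.42 ± 0.27 (adjusted p = 0.000225). This probe was well above background on 23 of the 24 arrays, the exception being an LKO mouse given CL316243.

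The probe for Ugt1a6a is not a measure of that gene alone. The Ugt1a genes lie in a nested cluster on chromosome 1 in which each gene has its own first exon and shares the remaining exons with the others, and the transcripts that the array lists for this probe belong, by RefSeq, to Ugt1a1, Ugt1a10, Ugt1a6a and Ugt1a7c. The first 30 of the 60 bases of the probes that separate the readings are given here, named by their first base in the transcript, 5′ to 3′ and all in lower case.
Ugt1a6b probe at transcript base 855: tccttacaccagaattctctgtggctgtta
Ugt1a6b probe at transcript base 1619: agtggtcttcattgtctttaaatgttgtgc
Ugt1a6b probe at transcript base 2212: accaaagtatgttctaaggcaagtacatct
Ugt1a6a probe at transcript base 3238: catttcagattcaagctatatattctgacc
In the mm9 build of the array annotation they lie at chr1:90004249-90004308, chr1:90114900-90114959, chr1:90115493-90115552 and chr1:90116514-90116573, all on the plus strand. The probe at base 2212, also annotated to several Ugt1a genes, was steady: its levels ranged from 8.05 to 8.47 over all mice, and CL316243 changed it by -0.05 ± 0.07 in LWT and -0.04 ± 0.07 in LKO livers. The probe at base 855, annotated to Ugt1a6b alone and far upstream of the others in the cluster, changed by -0.02 ± 0.14 in LWT livers and fell by 0.65 ± 0.14 in LKO livers (adjusted p = 0.00118). The probe at base 1619 fell by 0.26 ± 0.08 in LKO livers (adjusted p = 0.0139). Within this locus the reading differed between probes, and of these 4 only the probe nearest the 3′ end fell in both genotypes. Ugt1a10, read by a probe shared with Ugt1a9, changed by 0.21 ± 0.37 and -0.45 ± 0.37.

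**Figure D1:**
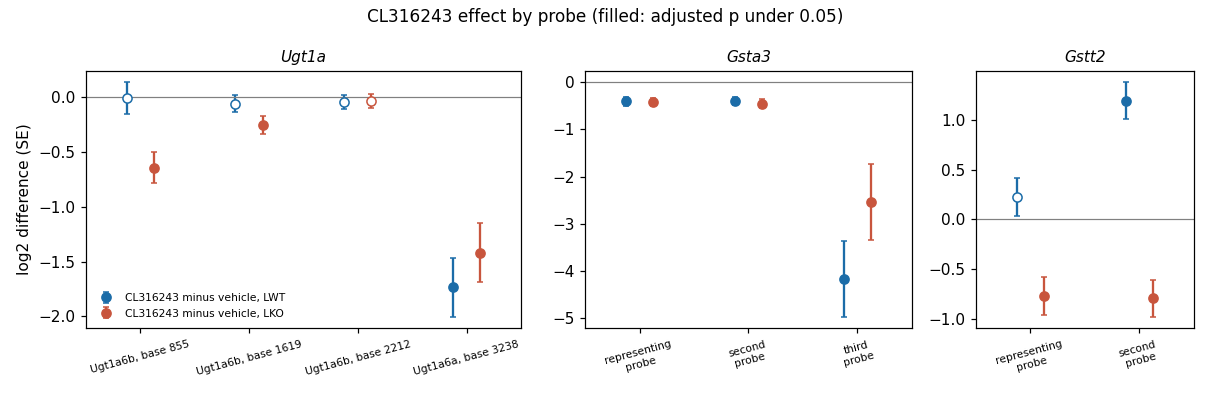
CL316243 minus vehicle, as log2 difference with SE, for each probe of the Ugt1a6 genes (left), Gsta3 (centre) and Gstt2 (right), in LWT (blue) and LKO (red) livers. Filled points passed an adjusted p of 0.05; the Ugt1a6b probe at base 2212 stayed at -0.05 and -0.04 while the Ugt1a6a probe lay at -1.73 and -1.42.

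Among the SULT genes, Sult1b1, Sult1c2, Sult1d1, Sult2a7 and Sult2a8 fell in LWT livers. Sult1d1, a sulfotransferase of catecholamines, had levels of 3.36, 3.79 and 4.39 (lowest, median, highest) on vehicle and 2.66, 3.07 and 3.56 on CL316243. Only the tails of the groups overlapped, and the change was -0.78 ± 0.16 (adjusted p = 0.00045). Sult1b1, which acts on thyroid hormones, went from 2.77, 2.99 and 3.62 to 1.89, 2.41 and 2.87, a change of -0.68 ± 0.17 (adjusted p = 0.00298) with slight overlap; its other probe changed by -0.23, which did not pass (adjusted p = 0.311). Sult2a7, of the hydroxysteroid and bile acid class, went from -1.08, -0.13 and 0.23 to -2.36, -1.08 and 0.01. That change of -0.92 ± 0.32 (adjusted p = 0.0272) was lost on leaving out any of 5 mice. It was also lost when only the LWT groups were fitted and without the background filter, with an adjusted p of up to 0.0626. Sult1c2 and Sult2a8 changed by -0.59 ± 0.18 and -0.27 ± 0.10, and the call for Sult2a8 was lost without any of 7 mice.

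The GST genes were nearly still in LWT livers, with a median change of 0.022 over 18 genes. Gsta3, the alpha-class enzyme that detoxifies aflatoxin epoxide in mice, fell from 9.33, 9.47 and 9.54 to 8.67, 9.10 and 9.22 without overlap, by -0.40 ± 0.09 (adjusted p = 0.00144). Gsto1, an omega-class thiol transferase, changed by -0.17 ± 0.06 (adjusted p = 0.0399), a call lost without any of 8 mice. The mu class had positive coefficients for all 7 genes, from 0.02 to 0.18, and none passed. Gstm1 ranged from 7.78 to 8.58 around a median of 7.98 on vehicle and from 7.97 to 8.24 around 8.01 on CL316243, a difference of 0.02 ± 0.11 (95% interval -0.22 to 0.25). Gsta2 overlapped widely as well, with levels of 3.33, 4.25 and 5.31 on vehicle and 3.56, 4.19 and 4.92 on CL316243, a difference of -0.16 ± 0.26 (95% interval -0.69 to 0.37). Sult1a1, the phenol sulfotransferase, went from 6.23, 6.90 and 7.11 to 6.42, 6.92 and 7.45, a difference of 0.08 ± 0.18 that did not pass (adjusted p = 0.745).

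In LKO livers CL316243 lowered 18 tested members and raised 1, Sult1a1. Over all genes 40.2% were called in this comparison (20.7% higher, 19.4% lower), against 45.2% of members. The members' median log2 change was -0.25, against 0.025 for all genes. The groups did not overlap in 13 of 42 members, 12 of them lower on CL316243, and in 20.8% of all genes. All 14 UGT coefficients were negative and 5 passed, while 9 of 18 GST genes fell. Of the members called, 11 were called in both genotypes and in the same direction, which is 11 of 15 in LWT (73.3%) and 11 of 19 in LKO (57.9%); these 2 comparisons share no mice. Over all genes tested the same shares were 64.5% and 61.4%, so the members' overlap was near the background. They were Gsta3, Gsto1, Sult1b1, Sult1d1, Sult2a7, Sult2a8, Ugt1a6a, Ugt2a1, Ugt2b1, Ugt2b34 and Ugt2b35.

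**Figure D2:**
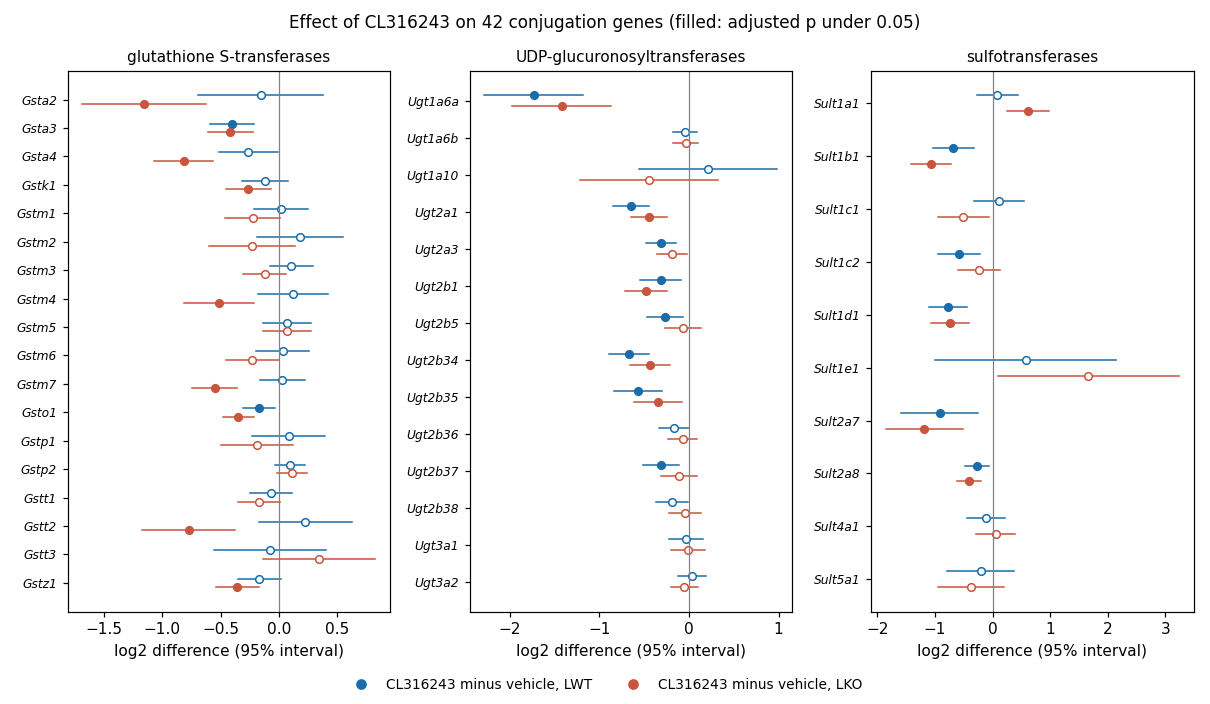
CL316243 minus vehicle for the 42 tested members in LWT (blue) and LKO (red) livers, as log2 difference with its 95% interval on the horizontal axis, by enzyme family; filled points passed an adjusted p of 0.05. By the brightest kept probe of each gene, no member rose in LWT livers and Sult1a1 alone rose in LKO livers. The 7 mu-class GST genes lay at or above 0 in LWT livers.

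The alpha-class GST genes, whose products act on lipid peroxidation products, all fell in LKO livers. Gsta2 had levels of 4.78, 5.19 and 5.79 (lowest, median, highest) in LKO mice on vehicle and 3.82, 4.21 and 4.31 in LKO mice on CL316243. No treated mouse reached the lowest vehicle mouse, and the change was -1.15 ± 0.26 (adjusted p = 0.00108), to 0.449 of the vehicle level. Gsta4, which conjugates the lipid aldehyde hydroxynonenal, went from 2.37, 2.55 and 3.00 to 1.57, 1.76 and 2.08, again without overlap, by -0.81 ± 0.12 (adjusted p = 2.2e-05). In LWT livers the same gene changed by -0.26 ± 0.12, which did not pass (adjusted p = 0.0957). Gsta3 fell by 0.42 ± 0.09, much as in LWT livers. A probe of Gsta3 annotated to another transcript of the locus fell far more, by 4.17 ± 0.81 in LWT and 2.55 ± 0.81 in LKO livers, and was well above background in only 4 and 5 of the 6 treated mice.

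Members of other GST classes also fell in LKO livers. Gstz1, the maleylacetoacetate isomerase of tyrosine breakdown, changed by -0.36 ± 0.09, Gstk1 of mitochondria and peroxisomes by -0.26 ± 0.09, Gsto1 by -0.35 ± 0.06 and Gstm4 by -0.51 ± 0.15. In LWT livers Gstz1 changed by -0.17 ± 0.09 without passing, but its second probe passed there (-0.26 ± 0.10, adjusted p = 0.04). The call for Gstk1 was lost without any of 5 mice. Gstm1 ranged from 8.0 to 8.25 around 8.18 on vehicle and from 7.69 to 8.37 around 7.89 on CL316243. Its difference of -0.23 ± 0.11 did not pass (adjusted p = 0.117). Its other probe, the only kept Gstm1 probe that the array annotation places in the mu-class cluster on chromosome 3, fell by 0.35 ± 0.12 (adjusted p = 0.0263), and leaving out the LKO mouse with the highest treated level, replicate 1, also brought the gene past the threshold (-0.31, adjusted p = 0.02). The pi-class genes Gstp1 and Gstp2 did not pass in any comparison, and the transcripts listed for the Gstp1 probe belong to both genes.

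The SULT genes moved in both directions in LKO livers. Sult1a1 rose from 6.78, 6.92 and 7.13 (lowest, median, highest) to 7.14, 7.56 and 8.17, so that the lowest treated mouse stood just above the highest vehicle mouse, by 0.62 ± 0.18 (adjusted p = 0.00721), and its other probe rose by 0.66. Sult1b1 fell from 3.15, 3.64 and 3.77 to 2.15, 2.49 and 2.66, without overlap, by 1.07 ± 0.17 (adjusted p = 4.13e-05). Sult2a7 fell from -0.08, 0.55 and 1.22 to -1.29, -0.58 and 0.17, by 1.18 ± 0.32 (adjusted p = 0.0054) with slight overlap. Both of these genes had also fallen in LWT livers. Sult1d1 fell by 0.74 ± 0.16, from 4.33, 4.48 and 4.71 to 3.65, 3.75 and 3.91, and Sult2a8 by 0.40 ± 0.10.

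Among the UGT genes of LKO livers, Ugt1a6a, Ugt2a1, Ugt2b1, Ugt2b34 and Ugt2b35 fell. Ugt2b1 had levels of 5.04, 5.39 and 5.76 on vehicle and 4.68, 4.90 and 5.05 on CL316243, a change of -0.48 ± 0.11 (adjusted p = 0.00165) in which a treated mouse just reached the lowest vehicle mouse. Ugt2b34 changed by -0.44 ± 0.11, and Ugt2a1 by -0.45 ± 0.10. Ugt2b35 changed by -0.35 ± 0.13 (adjusted p = 0.0371), a call lost without any of 6 mice. Ugt2b5, Ugt2b36, Ugt2b37 and Ugt2b38 changed by between -0.11 and -0.05 and did not pass.

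Whether CL316243 acted differently in the 2 genotypes was tested as an interaction, the change in LKO minus the change in LWT livers. The interaction was called for 2 of the 42 members, Gstm7 and Gstt2, both negative, which is 4.76% against 5.40% of all genes (2.06% positive, 3.34% negative). The members' median interaction was -0.094 and that of all genes 0.025. For the other members called in only 1 genotype, the difference between genotypes did not pass.

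Gstm7, a mu-class GST, had levels of 1.31, 1.39 and 1.93 (lowest, median, highest) in LWT mice on vehicle and 1.33, 1.45 and 1.75 in LWT mice on CL316243. In LKO mice it had levels of 1.73, 1.81 and 1.90 on vehicle and 1.05, 1.28 and 1.38 on CL316243. The LWT groups overlapped fully and the LKO groups did not overlap, with changes of 0.03 ± 0.09 and -0.55 ± 0.09. The interaction was -0.58 ± 0.13 (adjusted p = 0.00957), and it stayed called when any 1 mouse was left out. The other Gstm7 probe gave an interaction of -0.22 that did not pass (adjusted p = 0.757), and the mean of the Gstm7 probes did not pass either (adjusted p = 0.261). Within the 3 slides, each with 2 mice per group, the interaction was -0.22, -0.67 and -0.85.

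Gstt2, a theta-class GST, had levels of 2.76, 3.92 and 4.16 in LWT mice on vehicle and 3.70, 3.98 and 4.34 in LWT mice on CL316243. In LKO mice the levels were 3.51, 3.86 and 4.18 on vehicle and 2.47, 3.18 and 3.29 on CL316243. The treated LKO mice stood below all other groups but for 1 LWT vehicle mouse, replicate 1, at 2.76. The LKO change was -0.77 ± 0.19 (adjusted p = 0.00274), the LWT change 0.22 ± 0.19 (adjusted p = 0.387) and the interaction -0.995 ± 0.27 (adjusted p = 0.0315). The call was lost on leaving out any of 6 mice (adjusted p between 0.051 and 0.0593) and without the background filter (adjusted p = 0.0703). Within the 3 slides the interaction was -0.15, -1.50 and -1.34. The other probe, annotated to another transcript, showed a wider split: 1.19 ± 0.19 in LWT (adjusted p = 3.13e-05), -0.79 ± 0.19 in LKO (adjusted p = 0.00176) and an interaction of -1.98 ± 0.26 (adjusted p = 3.7e-05).

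The marker genes of the enzyme families had interactions that did not pass. Gsta2 had an interaction of -0.995 ± 0.36 (adjusted p = 0.124), Sult1a1 one of 0.53 ± 0.25 (adjusted p = 0.255), Gstm1 one of -0.24 ± 0.16 (adjusted p = 0.466) and Ugt2b1 one of -0.16 ± 0.16 (adjusted p = 0.659). The LWT vehicle mouse of replicate 3 mattered here. It had the highest LWT vehicle level of Gsta2 (5.31), Gsta4 (2.78), Gstm1 (8.58), Gstm3 (9.07), Gstm4 (4.55), Gstm6 (5.62) and Gstm7 (1.93), and without it Gsta2 (-1.19, adjusted p = 0.0393), Gsta4 and Gstm4 (-0.80, adjusted p = 0.000883) also passed, which made 5 members.

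**Figure D3:**
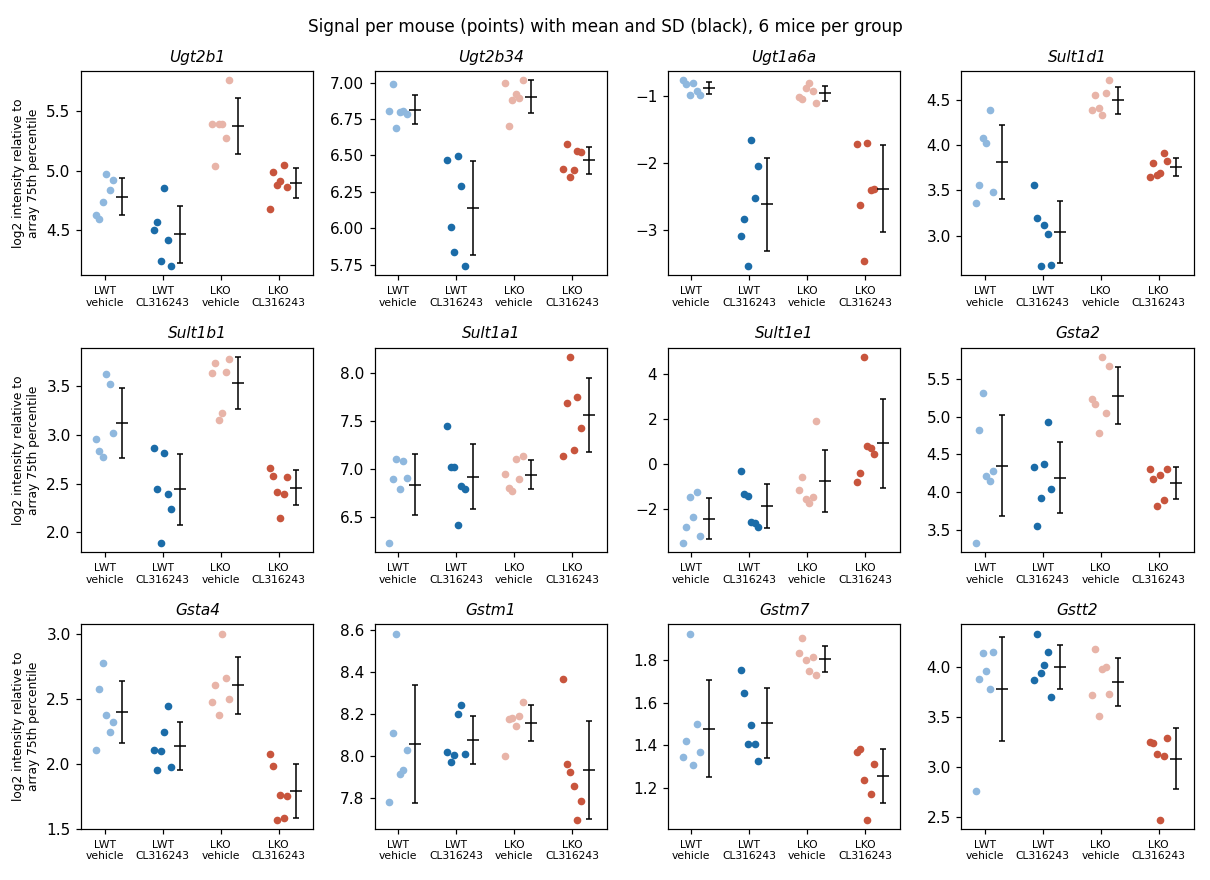
Level of 12 members in each mouse (points; log2 intensity relative to the 75th percentile of the array), with the mean and SD of the 6 mice of each group in black; each panel has its own vertical scale. Gsta2, Gsta4, Gstm7 and Gstt2 are low in LKO mice given CL316243 relative to LKO mice on vehicle, whereas Ugt2b1 and Sult1d1 are higher in LKO than in LWT mice within each treatment.

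Under vehicle, members tended to be higher in LKO than in LWT livers, but few differences passed. The vehicle mice here are also those of the 2 treatment comparisons, so a high LKO vehicle level enters both this difference and the LKO fall with CL316243. For Gsta2 the mean levels were 4.35 in LWT and 5.28 in LKO mice on vehicle, and 4.19 and 4.12 on CL316243. Only Ugt2b1 and Sult1d1 were called, both higher in LKO livers, which is 4.76% of members against 1.18% of all genes (0.403% higher, 0.778% lower). At an unadjusted p under 0.05, 18 members were higher and 0 lower, again with no count over all genes at that threshold. The median log2 difference was 0.205 for the members and -0.014 for all genes. Of the 42 member coefficients 37 were above 0, against 9698 of 21331 over all genes. The genotypes did not overlap in 3 members (Ugt2b1, Ugt2b36 and Gsto1) and in 1.81% of all genes. Ugt2b1 had levels of 4.59 to 4.97 in LWT and 5.04 to 5.76 in LKO mice, without overlap, a difference of 0.59 ± 0.11 (adjusted p = 0.00485). Sult1d1 had levels of 3.36 to 4.39 in LWT and 4.33 to 4.71 in LKO mice, a difference of 0.68 ± 0.16 (adjusted p = 0.0291) that was lost without any of 6 mice. Its call was also lost without the background filter and with only the vehicle groups in the fit, where adjusted p reached up to 0.0803. Gsta2 was higher by 0.93 ± 0.26 without passing (adjusted p = 0.0971), and it passed, with Gstm4 and Gstm7, when LWT vehicle replicate 3 was left out. Gstm1 and Sult1a1 differed by 0.10 ± 0.11 and 0.11 ± 0.18, and neither passed.

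Ugt2b1 and Sult1d1, the genes that differed by genotype on vehicle and fell with CL316243 in both genotypes, lie on the same stretch of chromosome 5 with the other Ugt2 genes, Sult1b1 and Sult1e1. Gsta2 and Gstm7 are 2 of the 7 GST genes that, by their brightest kept probe, passed as lower with CL316243 in LKO livers only. The others were Gsta4, Gstk1, Gstm4, Gstt2 and Gstz1, although a second probe of Gstz1 did pass in LWT livers. Of the 7, the difference between genotypes passed for Gstm7 and Gstt2 alone. Their RefSeq promoters, 300 bases around the annotated start of transcription (build GRCm38.p6, read 5′ to 3′ on the strand of the gene), are shown to let these pairs be compared. Capitals mark matches, on either strand, to the nuclear receptor hexamer AGGTCA, the antioxidant response element core TGACNNNGC, the xenobiotic response element core GCGTG and the HNF1 hexamer GTTAAT.
Ugt2b1: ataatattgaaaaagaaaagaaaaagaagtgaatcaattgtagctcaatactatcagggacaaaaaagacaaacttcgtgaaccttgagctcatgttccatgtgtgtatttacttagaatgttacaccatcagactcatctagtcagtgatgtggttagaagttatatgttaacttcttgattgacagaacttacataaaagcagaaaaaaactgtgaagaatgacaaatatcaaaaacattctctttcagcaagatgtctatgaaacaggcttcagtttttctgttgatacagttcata
Sult1d1: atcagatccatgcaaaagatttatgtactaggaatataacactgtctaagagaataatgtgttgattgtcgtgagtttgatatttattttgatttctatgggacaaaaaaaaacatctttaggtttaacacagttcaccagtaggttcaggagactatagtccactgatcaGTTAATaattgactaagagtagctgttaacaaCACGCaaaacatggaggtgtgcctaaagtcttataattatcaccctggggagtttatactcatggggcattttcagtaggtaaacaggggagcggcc
Gsta2: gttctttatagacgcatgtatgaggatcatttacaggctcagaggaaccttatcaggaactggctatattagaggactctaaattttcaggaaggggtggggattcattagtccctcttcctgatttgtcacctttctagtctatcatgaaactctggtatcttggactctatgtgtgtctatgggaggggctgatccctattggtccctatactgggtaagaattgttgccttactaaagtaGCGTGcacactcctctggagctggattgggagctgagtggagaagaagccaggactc
Gstm7: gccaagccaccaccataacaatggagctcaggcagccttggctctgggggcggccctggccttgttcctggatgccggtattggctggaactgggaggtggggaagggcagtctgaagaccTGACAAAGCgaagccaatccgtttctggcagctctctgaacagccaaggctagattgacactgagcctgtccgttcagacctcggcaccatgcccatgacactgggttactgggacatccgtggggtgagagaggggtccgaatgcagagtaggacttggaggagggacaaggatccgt
They lie on the minus strand at chr5:86926454-86926753, chr5:87568957-87569256, chr9:78347096-78347395 and chr3:107931565-107931864. The Ugt2b1 window held no match, that of Sult1d1 held GTTAAT and, on the opposite strand, GCGTG, that of Gsta2 held GCGTG and that of Gstm7 held TGACNNNGC; another annotated start of Gstm7 had no match. Of the 45 promoters of the 36 tested members in the table, 22.2% held AGGTCA, 6.67% TGACNNNGC, 15.6% GCGTG and 15.6% GTTAAT. The shares among all 32851 promoters of the table were 16.3%, 12.4%, 32.4% and 7.1%. The DR1 repeat, in which 2 copies of AGGTCA follow each other 1 base apart as in a PPAR response element, was in 0 member promoters and in 0.0396% of all promoters. The motifs do not overlap each other in these windows, they were chosen with the sequences and results in view, and a match is no evidence of binding.

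Under CL316243 the genotypes differed in 13 members, of which 12 were higher in LKO livers and 1, Gstt2, was lower. Over all genes 15.9% were called (7.56% higher, 8.30% lower), against 31% of members. The groups did not overlap in 2 members, Gstt2 and Sult1d1, and in 6.55% of all genes. The median log2 difference was 0.063 for the members and 0.011 for all genes. This comparison shares its mice with both treatment comparisons, so its values stand beside theirs and do not count as a further observation of them.

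The UGT2 cluster made up most of the members higher in LKO livers under CL316243. In the mm9 annotation of the array its 7 Ugt2b genes span chromosome 5 from 87318849 to 87839404. All but Ugt2b35 were called higher in LKO livers, and the 7 differences ran from 0.22 to 0.48, with a median of 0.36. Under vehicle the same 7 differences ran from -0.006 to 0.594, with a median of 0.227 and 1 of them called. The interaction was called for 0 of the 7. Ugt2b37 went from 5.10, 5.43 and 5.79 (lowest, median, highest) in treated LWT mice to 5.70, 5.94 and 6.07 in treated LKO mice, a difference of 0.48 ± 0.10 (adjusted p = 0.00113). Ugt2b1 had levels of 4.20 to 4.85 in treated LWT and 4.68 to 5.05 in treated LKO mice, a difference of 0.43 ± 0.11 (adjusted p = 0.00978). Ugt2b5, Ugt2b36 and Ugt2b38 differed by 0.43, 0.34 and 0.36, Ugt2a3 by 0.35 and Ugt2b34 by 0.33, the last a call that was lost without any of 7 mice. The genotypes overlapped in each of these genes. Probes of neighbouring genes can read each other's RNA. By their listed transcripts the probe of Ugt2b36 also belongs to Ugt2b37 and that of Ugt2a1 also to Ugt2a2, a gene outside the 53. The probes of Ugt2b37 and Ugt2b5 share a run of 18 bases, the only pair among 1691 pairs of probes of different members to share 15 or more. Probes were compared only with each other and not with transcripts, so this count does not measure how often a probe reads another gene.

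**Figure D4:**
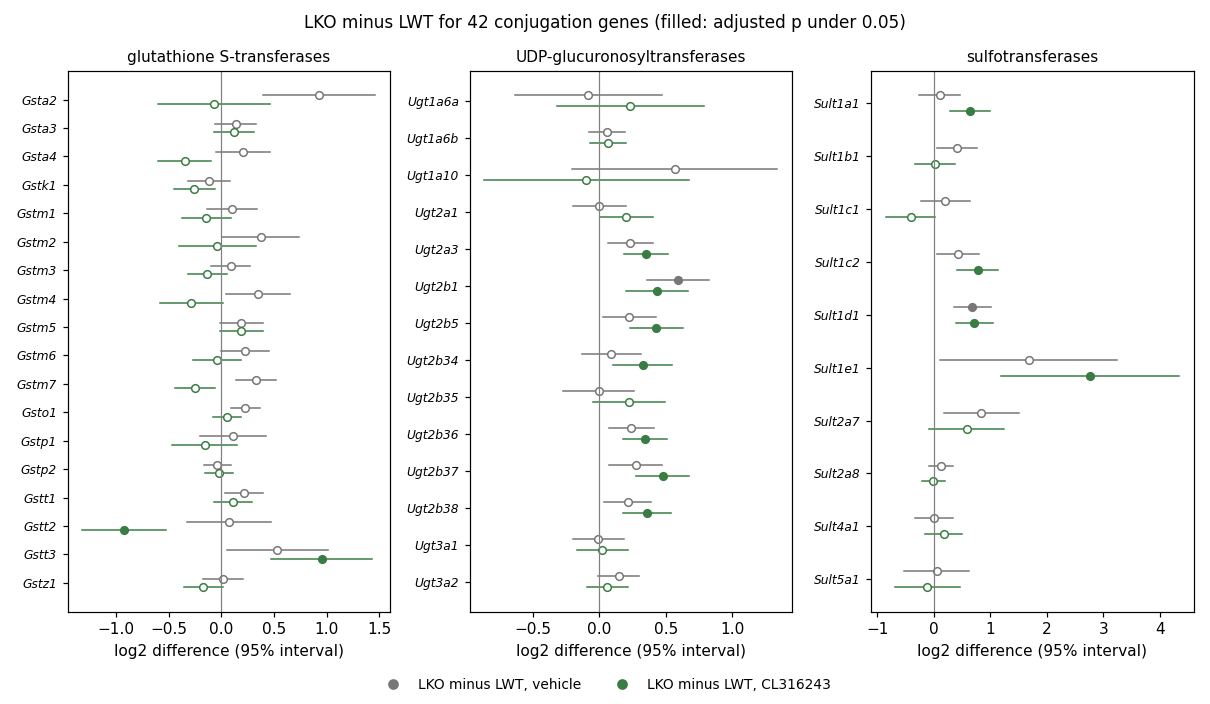
LKO minus LWT for the 42 tested members under vehicle (grey) and under CL316243 (green), as log2 difference with its 95% interval, by enzyme family; filled points passed an adjusted p of 0.05. The 7 Ugt2b genes lie between 0.22 and 0.48 under CL316243, Sult1e1 has the widest interval, and Gstt2 lies at -0.92.

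The SULT genes higher in treated LKO livers were Sult1a1, Sult1c2, Sult1d1 and Sult1e1. Sult1e1, the oestrogen sulfotransferase, varied most of all members between mice of a group: its SD was 0.91 and 0.98 in the LWT groups, 1.37 in LKO mice on vehicle and 1.99 in LKO mice on CL316243. In treated mice it had levels of -2.81, -2.03 and -0.33 (lowest, median, highest) in LWT and -0.84, 0.57 and 4.74 in LKO livers. The difference of 2.77 ± 0.76 (adjusted p = 0.0137) was 2.0 (adjusted p = 0.0218) without the LKO mouse at 4.74, replicate 3, and it did not pass when only the treated groups were fitted (adjusted p = 0.0528). The rise of Sult1e1 by CL316243 in LKO livers, 1.67 ± 0.76, did not pass (adjusted p = 0.0848), but did without the LKO vehicle mouse at 1.90 (replicate 6) or without the LKO treated mouse of replicate 1.

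Sult1d1 had levels of 2.66, 3.07 and 3.56 in treated LWT mice and 3.65, 3.75 and 3.91 in treated LKO mice. The genotypes did not overlap, and the difference was 0.72 ± 0.16 (adjusted p = 0.00239). Sult1c2 had levels of 0.48, 0.88 and 1.25 in treated LWT mice and 1.22, 1.55 and 2.43 in treated LKO mice, a difference of 0.78 ± 0.18 (adjusted p = 0.00337). Sult1a1 had levels of 6.42, 6.92 and 7.45 in treated LWT mice and 7.14, 7.56 and 8.17 in treated LKO mice, a difference of 0.64 ± 0.18 (adjusted p = 0.0138). With only the treated groups in the fit, Sult1a1 did not pass (adjusted p = 0.0626). Groups overlapped at their edges for Sult1a1 and Sult1c2.

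Of the GST genes, Gstt3 was higher and Gstt2 lower in treated LKO livers, although both lie in the theta-class cluster on chromosome 10, where Gstt1 and Gstt4 stand between them. Gstt3 had levels of 3.69, 3.87 and 4.55 in treated LWT mice and 4.01, 4.94 and 6.07 in treated LKO mice, a difference of 0.95 ± 0.23 (adjusted p = 0.00575) that did not pass with only the treated groups in the fit (adjusted p = 0.0602). The highest Gstt3 level, 6.07, was that of replicate 3, the mouse that also had the highest Sult1e1 and the highest Sult1a1. Gstt2 had levels of 3.70 to 4.34 in treated LWT and 2.47 to 3.29 in treated LKO mice, without overlap, a difference of -0.92 ± 0.19 (adjusted p = 0.0015), and the mean of the Gstt2 probes differed by -1.42 (adjusted p = 2.49e-07). Gsta2 and Gstm1 differed by -0.07 ± 0.26 and -0.14 ± 0.11, and neither passed.

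By the brightest kept probe of each gene, 27 of the 42 tested members were called at least once over the 5 comparisons. The 15 never called include 5 of the 7 mu-class genes, both pi-class genes and both Ugt3a genes. Among the 15 was Gstm6, whose second probe did pass, with a change of -0.58 ± 0.13 in LKO livers (adjusted p = 0.00139). That probe had an interaction of -0.67 ± 0.19 (adjusted p = 0.0362). Gstm1 and Ugt1a6b, also among the 15, had other probes that passed in LKO livers, as given above. The 11 members that were not tested did not pass the background filter. These were Gsto2, Gstt4, Sult2a1 to Sult2a6, Sult2b1, Sult3a1 and Sult6b1, and Gstt4, Sult2a1, Sult2a3, Sult2a4 and Sult6b1 were not well above background on any array. Of the 14 members read by more than 1 kept probe, the probes disagreed on the call of 4 in each treatment comparison, of 2 in the interaction and of 0 between genotypes. No pair of probes of a member was called in opposite directions within a comparison. The probe that represents Gstm1 is placed by the array annotation at chr5:117082490-117082549, away from the mu-class cluster.

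The genes that supply, extend or undo conjugation changed in both directions. Of 45 such genes in the lists, 43 were tested. In LWT livers 11 rose and 9 fell with CL316243, in LKO livers 11 rose and 12 fell, and the lists' median changes were -0.072 and -0.103. These lists were drawn up with earlier results of these data in view.

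For sulfation, 2 of the 5 genes of the PAPS list fell and 1 rose in LWT livers, and 3 fell and 1 rose in LKO livers. Papss1, which makes PAPS, fell by 1.05 ± 0.18 in LWT and 0.45 ± 0.18 in LKO livers, and the sulfate carrier Slc26a1 by 1.19 ± 0.19 and 0.88 ± 0.19. Papss2 fell by 0.57 ± 0.14 in LKO livers only by the threshold, with -0.30 ± 0.14 in LWT livers. Of the 4 genes that cleave conjugates, 2 rose in LWT and 3 in LKO livers. The arylsulfatase gene Arsa rose by 1.35 ± 0.17 and 1.39 ± 0.17 and the steroid sulfatase gene Sts by 0.40 ± 0.12 and 0.51 ± 0.12.

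For glutathione, 4 of 5 list genes were tested, and the clearest difference was in Gclc, the catalytic subunit of the enzyme that limits glutathione synthesis. Gclc changed by -0.27 ± 0.21 in LWT livers (adjusted p = 0.345) and rose by 1.1 ± 0.21 in LKO livers (adjusted p = 0.000304), an interaction of 1.37 ± 0.30 (adjusted p = 0.00748). Its partner Gclm fell by 0.47 ± 0.09 in LWT livers and changed by -0.17 ± 0.09 in LKO livers. For glucuronidation, Ugdh, which makes UDP-glucuronic acid, rose by 0.54 ± 0.15 in LKO livers and changed by 0.02 ± 0.15 in LWT livers, and Ugp2 fell by 0.37 ± 0.12 in LWT livers. Of the 3 genes of that list, 1 fell in LWT and 1 rose in LKO livers.

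Of 13 tested genes for other conjugation reactions, 3 rose and 4 fell in LWT livers, and 1 rose and 6 fell in LKO livers. The arylamine acetyltransferase gene Nat1 fell by 1.91 ± 0.35 and 2.01 ± 0.35, and Nat8, which acetylates cysteine conjugates at the end of the mercapturate pathway, by 1.04 ± 0.18 and 1.22 ± 0.18. The Nat1 signal was dim in treated mice, with mean levels of -4.73 in LWT and -5.16 in LKO livers, so the size of its fall is uncertain. Nnmt, the nicotinamide methyltransferase gene, rose by 1.51 ± 0.34 and 1.61 ± 0.34. These genes changed to a like extent in both genotypes, with interactions of -0.11 ± 0.50, -0.18 ± 0.25 and 0.09 ± 0.49, intervals too wide to call them equal. Of the 4 exporters of conjugates, Abcc2 fell in both genotypes, by 0.27 ± 0.10 and 0.44 ± 0.10, and Abcc4 rose in LKO livers by 0.63 ± 0.20.

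Of the 10 regulators, 4 rose and none fell in LWT livers, and 3 rose and 2 fell in LKO livers. The 10 include Ppara, the gene by which the genotypes are told apart, so these counts are not free of the genotype itself. Its mean level went from 6.24 on vehicle to 6.79 on CL316243 in LWT livers and from 5.57 to 4.88 in LKO livers. That of Nr1i2, which encodes PXR, went from 3.95 to 4.48 in LWT and from 3.64 to 3.98 in LKO livers. Ahr, the aryl hydrocarbon receptor gene, changed by -0.14 ± 0.21 in LWT and rose by 1.28 ± 0.21 in LKO livers, an interaction of 1.41 ± 0.30 (adjusted p = 0.00546). Its partner Arnt rose in both, by 0.35 ± 0.09 and 0.85 ± 0.09, with an interaction of 0.50 ± 0.13 (adjusted p = 0.0194). Nr1i3, which encodes CAR, fell by 0.997 ± 0.22 in LKO livers (adjusted p = 0.000859) and changed by -0.04 ± 0.22 in LWT livers; that difference did not pass (interaction -0.95 ± 0.30, adjusted p = 0.073). Nfe2l2, which encodes NRF2, changed by -0.12 ± 0.19 and -0.14 ± 0.19 and did not pass in either genotype.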

How the data were processed

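Liver RNA of 24 mice was labelled with Cy3 from 200 ng per sample and hybridised to Agilent arrays, 1 per mouse, per the labels' protocols; the animals of a group are separate mice. The deposited scanner tables hold intensity per spot, from which the authors' software, version 10.10.1.1 of Agilent Feature Extraction by the file headers, had subtracted background, and probe positions in mm9. The deposited series table holds log2 values that matched the quantile-normalized log2 median signal (99.3% of values within 0.01) and served as an alternative. Outlier spots were left out, spots of a probe were averaged, and log2 processed intensity minus the 75th percentile of each array's gene probes was used. Kept were probes marked well above background in 4 or more of the 6 mice of some group, and the brightest kept probe represented a gene. limma 3.58.1 (R 4.3.3) was fitted with 1 mean per group to 21331 genes, with Benjamini-Hochberg adjustment within each of 5 comparisons and calls at adjusted p under 0.05. The median SE of a member's difference was 0.111, and of an interaction 0.157; the number of arrays limits the precision. The fit was tested on simulated data. The arrays lay on 3 slides of 8, each with 2 mice of every group; 0 of 42 members were called for slide or for row of the slide. Described in full were Gsta2, Gstm1, Ugt2b1 and Sult1a1 and, per comparison, up to 5 called members with the largest change in each direction; other members and list genes were named with their family's or list's count. Members, lists and tests were chosen with earlier results of these data known. Alternatives covered background correction, normalization, filter, probe choice, slide, row, replicate block, groups in the fit, a 1.5-fold requirement and leaving out each mouse.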

Additional observations from a re-analysis of the deposited data

Results flagged for a closer look

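In 60 sets of 6 mice (a described member in a group), 7 had a mouse far from the others of its group, by Dixon's test at 95%, where chance marks about 1 in 20 sets. Gstm7 was 1.925 in LWT vehicle replicate 3, against 1.309 to 1.502 in the other mice of that group. Gstt2 was 2.758 in LWT vehicle replicate 1, against 3.783 to 4.156, and 2.47 in LKO CL316243 replicate 4, against 3.109 to 3.29. Sult1a1 was 6.231 in LWT vehicle replicate 1, against 6.794 to 7.11. Sult1c2 was 1.215 in LKO vehicle replicate 6, against 1.955 to 2.073. In that same mouse Sult1e1 was 1.901, against -1.744 to -0.574 in the others, and Sult1e1 was 4.74 in LKO CL316243 replicate 3, against -0.836 to 0.765.

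The effect of CL316243 differed between genotypes, by the test of the difference itself, for Gstm7 (-0.58, LKO minus LWT) and for Gstt2 (-0.995).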

How the results depend on the processing

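Of 37 results on single members, 28 kept their side of the threshold under every alternative run other than leaving out a mouse, 26 of them with their sign, and 30 did when any 1 mouse was left out, 25 of them with their sign. Requiring a 1.5-fold change as well left 7 members in LWT and 8 in LKO for CL316243, 1 for the interaction and 6 for genotype under CL316243. Counts over all genes are not given here for this setting or those that follow. The member counts therefore cannot be set against a background share. Without the background filter, 1 member was called for the interaction and 1 for genotype under vehicle. The replicate block gave 1 for genotype under vehicle (Sult1d1 then at adjusted p = 0.0555), as did fitting only the groups compared, and the block changed no other count of members by over 1.5 times. The numbers were not taken as pairs, since the labels tie them to nothing shared. The correlations of same-numbered mice ran from -0.183 to 0.421 (median 0.052, against -0.008 for different numbers). Of 24 mice, 10 correlated best with a mouse of their own number, and the number expected by chance was not worked out. Vehicle mice of the same number in LWT and LKO lay on the same slide. Whether same-numbered mice share anything else was not tested. The mean of a gene's kept probes gave 1 for the interaction. Leaving out LKO vehicle replicate 6 and LKO CL316243 replicate 3 together, chosen after seeing the data, gave 1 for genotype under vehicle. The median change in LWT was -0.286, -0.23 and -0.033 within slides 1, 2 and 3, the median genotype difference under vehicle was 0.143 within slide 1, and the genotype median under CL316243 was 0.233 within slide 2 and -0.045 within slide 3. Sult2a7 in LWT was 0.229 within slide 1. The cause was not tested for any of these. Leaving out each mouse in turn gave 10 to 17 members (medians -0.187 to -0.095) in LWT, 17 to 23 (-0.299 to -0.238) in LKO, 1 to 5 (-0.143 to -0.031) for the interaction, 1 to 5 (0.163 to 0.217) for genotype under vehicle and 12 to 16 (0.041 to 0.099) under CL316243. Only LWT vehicle replicate 3, when left out, gave 5 for the interaction and 5 for genotype under vehicle. Of the calls, 10 of 15, 17 of 19, 1 of 2, 1 of 2 and 12 of 13 held without any 1 mouse. Members near background, such as the untested Sult2a genes, are limited by their signal.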
